A study of Mus musculus with 20 samples.

Results

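Laminins are the proteins that lay down the basement membrane, the sheet of matrix under endothelium and epithelium and around smooth muscle. Each laminin is a trimer of an α, a β and a γ chain, and the trimer binds integrins and dystroglycan on the cell surface and nidogen, agrin and type IV collagen in the matrix. In the kidney the mature glomerular basement membrane is known for the chains encoded by Lama5, Lamb2 and Lamc1, made by podocytes and glomerular endothelium, and Lamb2 replaces Lamb1 there as the glomerulus matures. The 10 laminin chain genes described here were taken by symbol from the 34255 genes of the deposited count table. They were 5 α chains (Lama1, Lama2, Lama3, Lama4 and Lama5), 3 β chains (Lamb1, Lamb2 and Lamb3) and 2 γ chains (Lamc1 and Lamc3).

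The libraries came from kidneys of healthy male mice of 8 to 12 wk, strain C57BL6/OlaHsd, genotype WT, with no treatment in any group. Arterioles, glomeruli and post-capillary venules were cut by laser microdissection (LMD) from hematoxylin-stained cryosections, peritubular capillaries were cut from sections stained with a fluorescent lectin, and libraries of whole kidney sections were the reference group. Each of these 5 groups had 4 libraries, labelled as biological replicates, and the libraries are named here by the number in their count table column (93, 96, 98 and 100). By the paper's methods, arterioles, glomeruli and venules of a mouse came from the same slide and its capillaries from another. Libraries of different groups may thus share a mouse, though no label ties the numbers to mice. The main tests took all libraries as independent. LMD libraries were made by a low-input version of the 3′ mRNA protocol with more PCR cycles than the whole kidney libraries, so for every comparison with whole kidney the compartment and the library preparation cannot be told apart, and the same holds for the capillaries and their stain. Dissected tissue also holds the cells around a vessel, and in such bulk samples fewer cells of a type and less RNA per cell cannot be told apart.

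Library totals ran from 4639090 to 12283098 counts. The smooth muscle markers (6 genes) took 1.14 to 1.87% of the counts in arterioles and at most 0.0794% in the other groups, and the podocyte markers (8 genes) took 0.919 to 1.08% in glomeruli, 0.0839 to 0.154% in arterioles and 0.0169 to 0.05005% in the remaining groups. The endothelial markers (10 genes) took 0.552 to 0.798% of the counts in glomeruli, 0.202 to 0.336% in arterioles, 0.1004 to 0.141% in venules, 0.0416 to 0.109% in capillaries and 0.0605 to 0.0642% in whole kidney. The capillary libraries therefore overlapped whole kidney in these markers, and their proximal tubule markers (7 genes) took 6.11 to 8.09% against 3.82 to 4.17% in whole kidney. No gene of these lists was at 0 in all libraries of a group.

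The promoters of the 3 chains that held most laminin counts are shown first. RefSeq promoter windows of 250 bases before the start site (build GRCm38.p6) were matched for 5 of the 10 chains (Lama2, Lama5, Lamb1, Lamb2 and Lamb3). Of each window, the part before the first start of any GENCODE transcript of the gene is printed, read 5′ to 3′ on the strand of the gene, with capitals for matches to 5 motifs on either strand. The TATA box was searched as TATAAA. The GC box, the site of Sp1-like factors, was searched as GGGCGG. The E-box of helix-loop-helix factors was searched as CANNTG and the core of ETS factor sites as CCGGAA, and the remaining motif was the box named by its letters CCAAT. No printed matches overlapped. Lamb2 lies at chr9:108479736-108490530 on the plus strand with 33 exons in its longest transcript, Lamb1 at chr12:31265234-31329644 on the plus strand with 33 exons, and Lama5 at chr2:180176373-180225859 on the minus strand with 79 exons. The printed windows are chr9:108479612-108479735, chr12:31265043-31265233 and chr2:180225860-180226109.
Lamb2: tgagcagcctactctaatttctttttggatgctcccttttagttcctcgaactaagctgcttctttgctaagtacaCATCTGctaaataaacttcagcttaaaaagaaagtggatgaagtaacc
Lamb1: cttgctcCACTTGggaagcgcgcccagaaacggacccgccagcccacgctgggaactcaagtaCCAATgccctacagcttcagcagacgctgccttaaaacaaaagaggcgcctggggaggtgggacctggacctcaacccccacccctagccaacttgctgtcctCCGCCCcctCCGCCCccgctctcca
Lama5: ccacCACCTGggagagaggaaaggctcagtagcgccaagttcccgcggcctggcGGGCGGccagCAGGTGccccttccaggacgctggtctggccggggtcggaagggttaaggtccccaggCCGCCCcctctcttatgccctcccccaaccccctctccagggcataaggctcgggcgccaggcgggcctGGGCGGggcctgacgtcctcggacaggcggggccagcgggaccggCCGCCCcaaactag

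In these letters the Lama5 window held 4 GC boxes and 2 E-boxes, and the whole 250 bases had a GC content of 72.4%. The Lamb1 window of 250 bases held 2 GC boxes, 1 CCAAT box and 2 E-boxes at a GC content of 62.0%, and the Lamb2 window held 1 E-box and no GC box or CCAAT box at 43.6%. The median GC content of all 32851 windows of this length was 52.4%. Of these windows 32.7% held a GC box, 33.8% a CCAAT box, 66.2% an E-box and 12.4% a TATA box, and 3952 windows held an ETS core. None of the 3 windows held the TATA box or ETS core letters. A match is a description of the sequence only.

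The α chains Lama1 (chr17:67697259-67822647, plus strand), Lama2 (chr10:26980036-27619758, minus) and Lama4 (chr10:38965515-39110188, plus) lie on chromosomes 17 and 10 of the same build. Lamb3 (chr1:193207699-193343878, plus) and Lamc1 (chr1:153218922-153332786, minus) lie on 1 chromosome, and Lamc3 (chr2:31887291-31946539, plus) on that of Lama5.

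All 10 chains together took 0.139 ± 0.0407% of the counts in arterioles (SD, n = 4) and 0.0919 ± 0.0104% in glomeruli. They took 0.0273 ± 0.00486% in peritubular capillaries, 0.0363 ± 0.00914% in post-capillary venules and 0.0265 ± 0.000856% in whole kidney. Lamb2 gave 78.3 ± 14.3% of the laminin counts of arterioles and 60.6 ± 4.94% of those of glomeruli, then 29.5 ± 12.9% for venules, 15.7 ± 0.956% for whole kidney and 5.06 ± 4.77% for capillaries. Lamb1 was lowest where Lamb2 was highest, with 2.57 ± 4.24% in arterioles, 19.3 ± 7.86% in glomeruli, 28.1 ± 5.54% in venules, 47.1 ± 14.2% in capillaries and 52.2 ± 4.21% in whole kidney. Each count stands for 1 sequenced 3′ end and is not scaled by gene length, so these are shares of reads and may differ from shares of molecules where the ends of 2 genes were not captured alike.

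**Figure D1:**
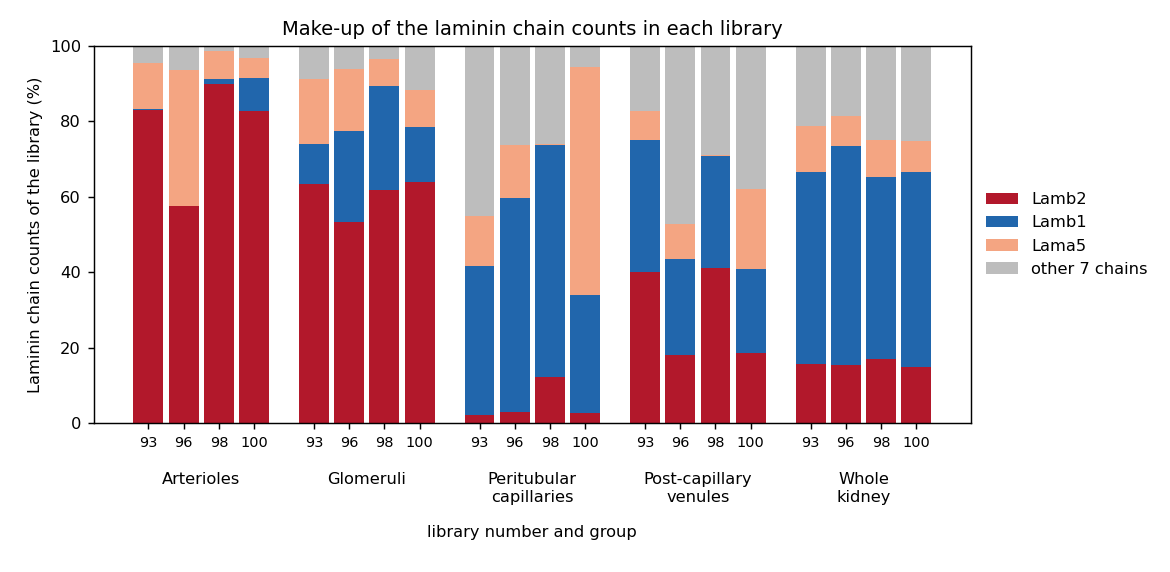
Stacked bars give, for each of the 20 libraries, the percentage of its laminin chain counts that came from Lamb2, Lamb1, Lama5 and the other 7 chains. Lamb2 fills at least 53.3% of every arteriole and glomerular bar and at most 12.2% of a capillary bar.

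Lamb2 encodes the β chain of mature vascular and glomerular basement membranes, and loss of its human counterpart causes a congenital nephrotic syndrome. It was high in arterioles, lower in glomeruli, lower again in venules and lowest in capillaries. In CPM, which are counts brought to one common library size with TMM factors, the arteriole libraries held 1611, 2036, 904 and 1087 in the order 93, 96, 98 and 100. The glomerular libraries held 389.9, 444, 398 and 519.7 CPM. The 2 groups did not overlap, and neither overlapped any other group.

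In venules Lamb2 stood at 150.5, 51.0, 171.5 and 68.6 CPM. In capillaries it stood at 5.47, 10.8, 38.8 and 10.2 CPM, and in whole kidney at 32.5, 36.6, 38.8 and 33.4 CPM. Venules lay above whole kidney in every library, and 1 capillary library (98, at 38.83 CPM) lay just above the highest whole kidney library (38.79 CPM) while the other 3 lay below all of them. That library held 0.0231% of its counts in smooth muscle markers, 0.0156% in mesangial and pericyte markers and 0.0169% in podocyte markers, of which the first 2 lay inside the range of the other 3 capillary libraries and the last below it. It was also the capillary library with the lowest share of endothelial markers (0.0416%) and the highest share of proximal tubule markers (8.09%), and the part of either in its Lamb2 level was not tested. Summed smooth muscle markers were highest in arterioles. So were summed mesangial and pericyte markers (0.391 to 0.524% of the counts in arterioles, 0.147 to 0.177% in glomeruli and at most 0.0474% elsewhere). Of the latter list, Rgs5 had the largest mean in arterioles (5081 CPM, against 253 in glomeruli). Gata3 and Itga8 also had higher means in arterioles, while Pdgfrb, Serpine2 and Des had higher means in glomeruli. Summed podocyte markers and summed endothelial markers were highest in glomeruli. Ehd3 (2220 CPM), Kdr (1261) and Emcn (674) had the largest glomerular means of the endothelial list, with 171, 58.5 and 16.7 CPM in arterioles. Eng and Plvap were also higher in glomeruli by mean CPM. Pecam1 (1661 against 350 CPM), Egfl7 (713 against 380), Tie1 (303 against 102), Cdh5 (139 against 85.0) and Tek (87.0 against 53.9) had higher means in arterioles. Within arterioles, library 96 was highest in both smooth muscle markers (1.87%) and Lamb2. Within glomeruli, library 93 was highest in podocyte markers (1.08%) and lowest in Lamb2. The part of these markers in the Lamb2 levels was not tested either.

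**Figure D2:**
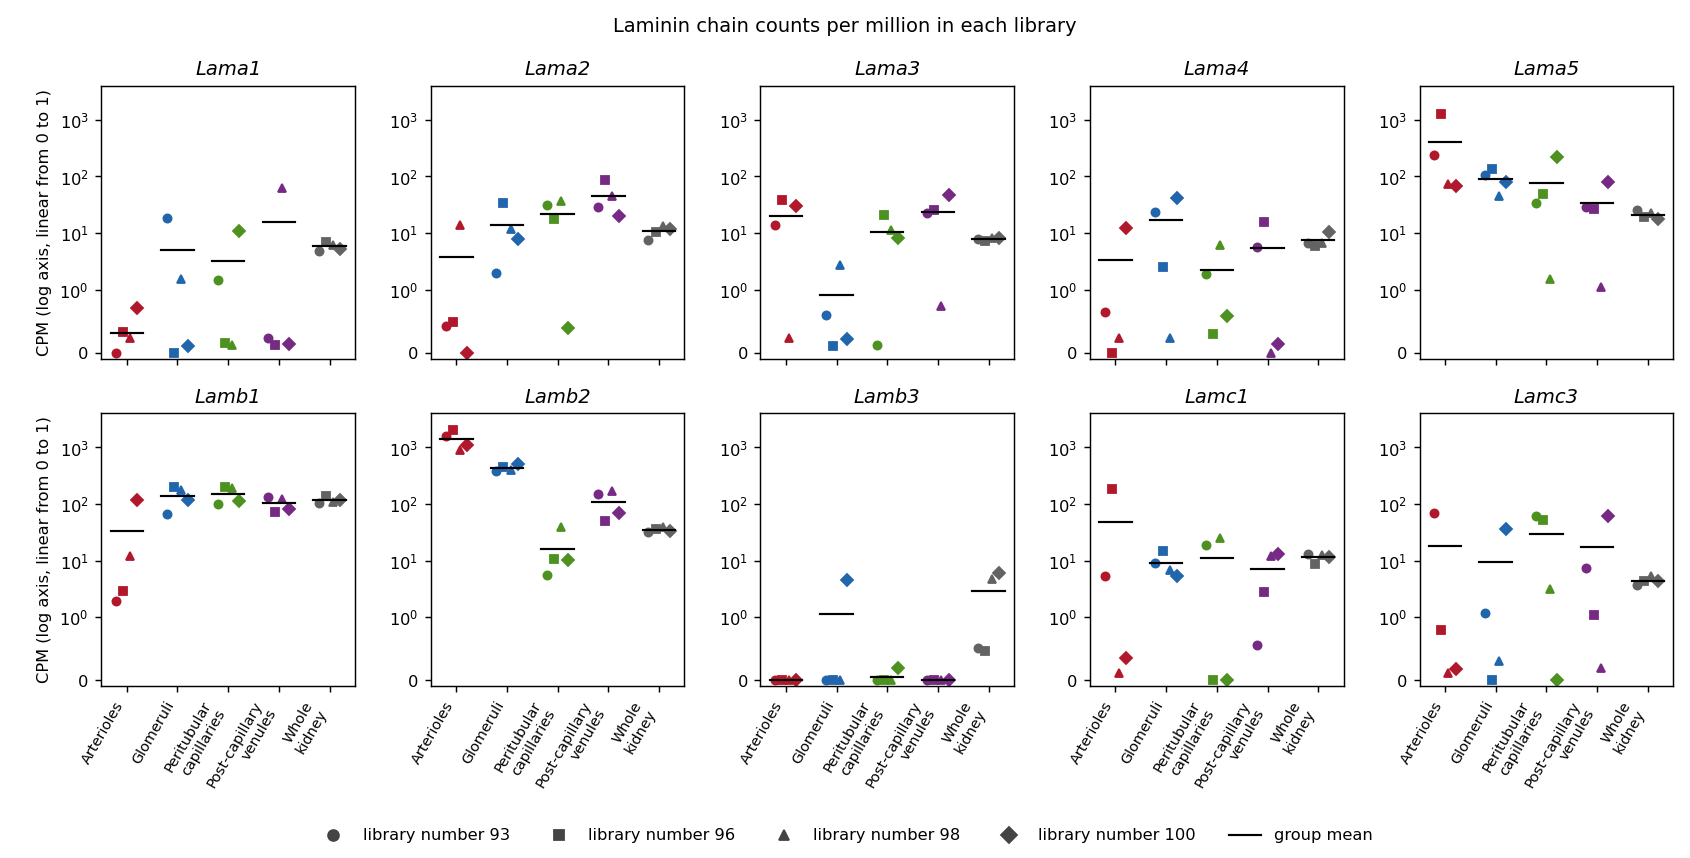
Each panel shows the CPM of 1 laminin chain in the 20 libraries by group, on an axis that is linear from 0 to 1 and logarithmic above, with a line at the group mean. Lamb2 separates arterioles (904 to 2036 CPM) from glomeruli (389.9 to 519.7 CPM), while Lama1, Lama2, Lama3, Lama4, Lamc1 and Lamc3 scatter widely in the microdissected groups and little in whole kidney.

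A test among the 4 microdissected compartments asked of each gene whether it differed between any of them, with edgeR's quasi-likelihood F test over 16 libraries and Benjamini-Hochberg adjustment over 12179 genes (false discovery rate, FDR). Of the 9 laminin chains that could be tested, 2 passed an FDR of 0.05, Lamb2 (FDR 1.26e-09) and Lama5 (FDR 0.0404), where 11.4% of all genes passed. Lamb2 passed under all 24 alternative settings. Lama5 did not pass without arteriole library 96 (FDR 0.592), without glomerular library 98 (FDR 0.0562), without venule library 93 (FDR 0.0626) or 96 (FDR 0.0633), or with plain library totals (FDR 0.117).

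Against whole kidney, a chain was called when its edgeR FDR was under 0.05 and its log2 fold change beyond 1 in either direction, in a fit of all 20 libraries and 13813 genes. In arterioles 2 of 9 chains were called, both higher, where 11.3% of all genes were called and 5.78% were called higher. Lamb2 was 39.9-fold higher by the ratio of mean CPM, with a log2 fold change of 5.32 (standard error, SE, taken from the fold change and its F statistic, 0.57, edgeR FDR 1.38e-08). Lama5 had a log2 fold change of 4.29 (SE 1.05, edgeR FDR 0.00607), and without arteriole library 96 this was 2.56 with an FDR of 0.102. The median log2 fold change of the 9 chains was 1.37, and that of all genes was 0.22.

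In glomeruli 1 of 9 chains was called against whole kidney, where 3.06% of all genes were called and 1.59% were called higher. This was Lamb2, 12.4-fold higher by mean CPM, with a log2 fold change of 3.63 (SE 0.52, edgeR FDR 1.69e-05). The medians were 0.40 for the chains and 0.25 for all genes. Lama5 had a log2 fold change of 2.11 (SE 0.95, edgeR FDR 0.265) in glomeruli, and was called when only the 8 libraries compared were fitted (FDR 0.00313) or under independent filtering on mean CPM (FDR 0.0365).

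In capillaries 0 of 9 chains were called against whole kidney by edgeR, where 0.0941% of all genes were called. At an unadjusted p under 0.05 there was 1 chain, Lamb2, with a log2 fold change of -1.11 (SE 0.48, edgeR FDR 0.33), and DESeq2 called 0. In venules 0 of 9 were called, where 0.224% of all genes were called. Again 1 chain, Lamb2, had an unadjusted p under 0.05, with a log2 fold change of 1.64 (SE 0.49, edgeR FDR 0.214), and DESeq2 called 0. Venule Lamb2 was called when only 8 libraries were fitted (FDR 0.0292) and under independent filtering (FDR 0.00962). Median log2 fold changes were 0.37 in capillaries and 1.42 in venules for the chains, and 0.18 and 0.19 for all genes. These 4 comparisons share their whole kidney libraries.

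**Figure D3:**
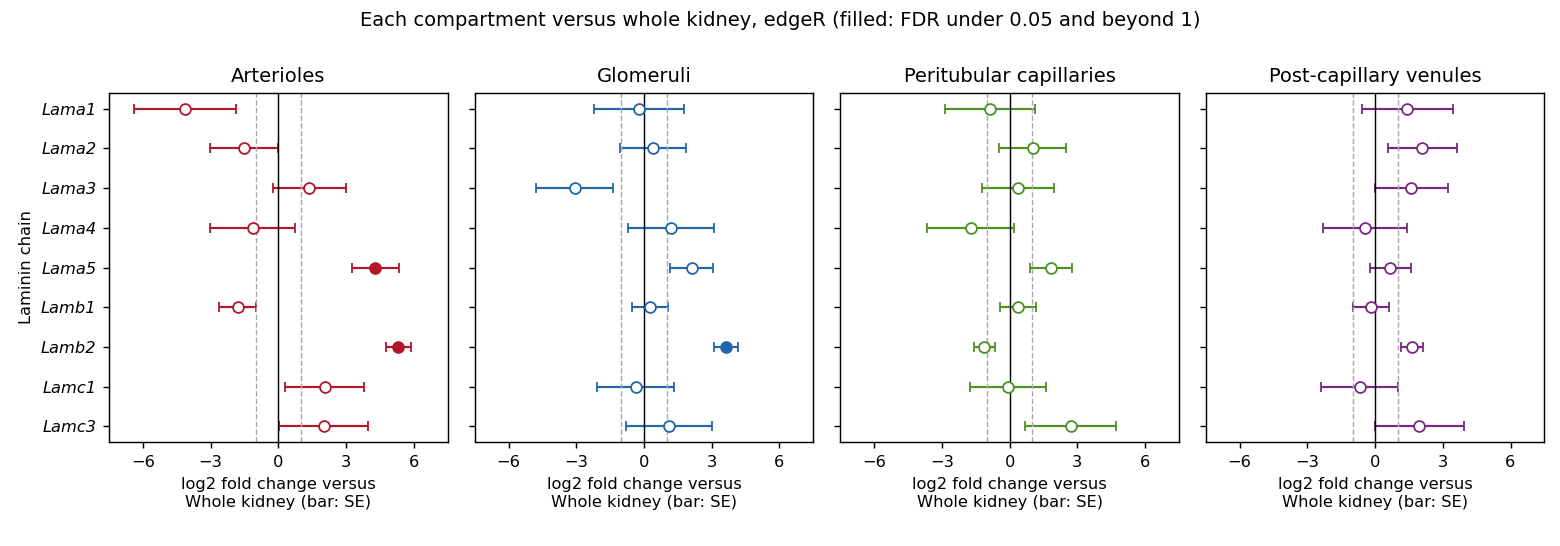
Points give the log2 fold change of 9 laminin chains in each compartment against whole kidney and bars give the standard error, with filled points for chains that passed an FDR of 0.05 and lay beyond the dashed lines at 1 and -1. Filled points are Lamb2 and Lama5 in arterioles and Lamb2 in glomeruli, and the bars of the sparse chains run over several log2 units.

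Set against one another, the compartments differed in Lamb2 in 5 of 6 pairs and in Lama5 in 1 pair. Over all pairs this made 6 of 54 chain and pair tests, where 3.98% of all gene and pair tests passed. Lamb2 was 86.4-fold higher in arterioles than in capillaries by mean CPM, with a log2 fold change of 6.43 (SE 0.64, edgeR FDR 3.29e-09), and it was the 1 chain called in that pair, where 11.2% of genes were called. Arterioles exceeded venules in Lamb2 by 3.67 (SE 0.56, edgeR FDR 4.52e-05) and in Lama5 by 3.61 (SE 1.07, edgeR FDR 0.0431), 2 calls where 4.38% of genes were called. The Lama5 call was lost in 5 of 24 alternatives, with a log2 fold change of 1.93 and an FDR of 0.301 without arteriole library 96, FDRs of 0.104, 0.105 and 0.101 without venule library 93, 96 or 98, and 0.0813 with plain library totals.

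Lamb2 in glomeruli exceeded capillaries by a log2 fold change of 4.75 (SE 0.60, edgeR FDR 1.01e-06), the 1 chain called where 4.49% of genes were called. Glomeruli exceeded venules in Lamb2 by 1.98 (SE 0.53, edgeR FDR 0.0473), the 1 chain called where 1.22% of genes were called, and this call was lost in 10 of 24 alternatives, up to an FDR of 0.211 without venule library 96. Lamb2 was lower in capillaries than in venules, with a log2 fold change of -2.77 (SE 0.54, edgeR FDR 0.00706), again the 1 chain called, where 0.411% of genes were called.

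Arterioles and glomeruli did not overlap in Lamb2, with a ratio of mean CPM of 3.22 and a log2 fold change of 1.69 (SE 0.52, 95% interval 0.66 to 2.71), yet the edgeR FDR was 0.0797. In this pair 0 chains were called, where 2.19% of genes were called. Lama3, Lama5, Lamb1 and Lamb2 had an unadjusted p under 0.05, and DESeq2 called 2, Lama3 (FDR 0.00996) and Lamb2 (FDR 0.0111). Lamb2 passed in 7 alternatives, among them RLE size factors (FDR 0.0337) and a fit of all 20 libraries (FDR 0.0358). Along the order of Lamb2 levels, the neighbours whose difference did not pass the edgeR FDR were arterioles and glomeruli, venules and whole kidney, and whole kidney and capillaries, although the 95% intervals of these 3 differences (the last 2 from 0.69 to 2.60 for venules and from -2.06 to -0.17 for capillaries, both against whole kidney) did not hold 0.

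Each compartment was also set against the mean of the other 3 on the log scale, giving 4 of 36 chain and compartment tests that passed, where 5.72% of all such tests passed. In arterioles 2 chains passed, where 11.3% of genes did: Lamb2 by 3.93 (SE 0.38, edgeR FDR 7e-10) and Lama5 by 2.74 (SE 0.72, edgeR FDR 0.00907). Without arteriole library 96 the Lama5 value was 1.07 with an FDR of 0.432. In glomeruli Lamb2 passed by 1.68 (SE 0.38, edgeR FDR 0.00596), where 3.79% of genes passed. In capillaries Lamb2 was the 1 chain to pass, lower by a log2 fold change of -4.65 (SE 0.56, edgeR FDR 2.7e-07), where 7.22% of genes passed. In venules 0 chains passed by edgeR or DESeq2, where 0.55% of genes passed, and Lama5 and Lamb2 had an unadjusted p under 0.05.

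Lamb1 encodes the β chain that is widespread in vessels and tubules and that precedes Lamb2 in the developing glomerulus. Its levels overlapped between whole kidney, glomeruli, capillaries and venules, and were low in 3 of 4 arteriole libraries. The arteriole libraries held 1.92, 2.90, 12.3 and 116.7 CPM, so library 100 stood apart. Glomerular libraries held 65.9, 202, 177 and 120.1 CPM, and capillary libraries 102, 196, 196 and 112 CPM. Venule libraries held 132, 71.1, 123 and 82.9 CPM, and whole kidney libraries 105, 138, 109 and 117 CPM. The first 3 arteriole libraries thus lay below every other library, and the other 4 groups overlapped.

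No contrast called Lamb1. In arterioles against whole kidney its log2 fold change was -1.81 (SE 0.82, edgeR FDR 0.116), and without arteriole library 100 it was -4.36 (edgeR FDR 0.000274). The test among the 4 compartments gave an FDR of 0.334 with that library and 0.00666 without it. Arteriole library 100 held 0.111% of its counts in podocyte markers, inside the range of the other 3, and 1.14% in smooth muscle markers, below the other 3 at 1.56 to 1.87%. Its proximal tubule markers took 1.30% of the counts, above the other 3 at 0.468 to 0.853%. A lower smooth muscle share and a higher tubule share thus moved with the higher Lamb1, and their part in it was not tested. Glomeruli and whole kidney differed in Lamb1 by 0.26 with a 95% interval of -1.29 to 1.82, which holds differences beyond 1 log2 unit in either direction.

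Lamb1 and Lamb2 can take the same place in a trimer, so they were set against each other within each library, where depth cancels. Lamb2 made up 99.9, 99.9, 98.7 and 90.3% of the Lamb1 and Lamb2 counts in the arteriole libraries. It made up 85.5, 68.7, 69.3 and 81.2% in the glomerular libraries and 53.3, 41.8, 58.2 and 45.3% in the venule libraries. In whole kidney the shares were 23.6, 20.9, 26.2 and 22.2%, and in capillaries 5.08, 5.20, 16.6 and 8.35%. The 5 groups occupied ranges that did not overlap, and no test was run on the shares.

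Mean shares were 97.2 ± 4.62% for arterioles and 76.2 ± 8.50% for glomeruli, then 49.6 ± 7.45% for venules, 23.2 ± 2.24% for whole kidney and 8.80 ± 5.39% for capillaries (SD, n = 4). The widest exact binomial interval of a single library ran from 38.7 to 44.9%, for venule library 96, and such intervals cover counting error only, since reads of a PCR library without molecular identifiers are not independent molecules. Leaving out 1 library at a time kept the arteriole mean between 96.3 and 99.5% and the glomerular mean between 73.1 and 78.7%. Glomerular and venule libraries thus held reads of both β chains, and in arteriole libraries nearly all β chain reads were Lamb2. Proximal tubule markers took 2.12 to 2.63% of the counts in venules, 0.555 to 0.933% in glomeruli and 0.468 to 1.30% in arterioles. The paper reports that some tubular material in capillary and venule dissections was unavoidable. Its part in the Lamb1 reads was not tested.

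**Figure D4:**
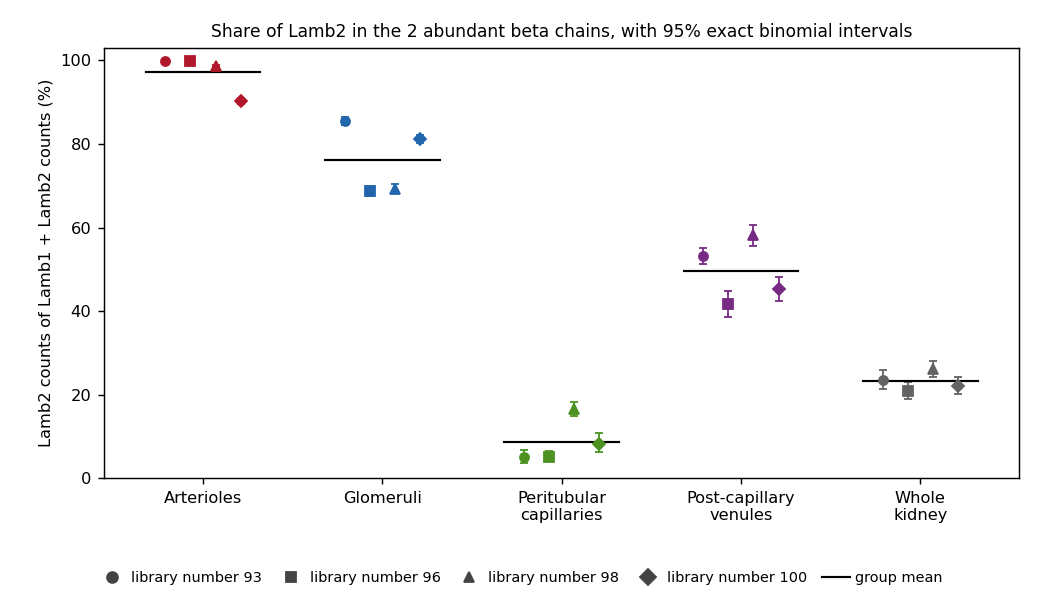
Points give Lamb2 counts as a percentage of Lamb1 and Lamb2 counts in each library, with 95% exact binomial intervals and a line at each group mean. The 5 groups fall in separate ranges from 5.08 to 16.6% in peritubular capillaries up to 90.3 to 99.9% in arterioles.

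Lama5 encodes the α chain of most adult endothelial and glomerular basement membranes. Arteriole libraries held 236, 1278, 74.2 and 67.5 CPM, and library 96 accounted for most of the group mean of 414 ± 581 CPM. Glomerular libraries held 106, 135, 45.7 and 78.3 CPM, a mean of 91.2 ± 38.2 CPM. Both groups lay above whole kidney in every library, where Lama5 stood at 25.2, 18.9, 22.5 and 18.0 CPM. Arterioles and glomeruli overlapped. Among the arterioles, library 96 had the highest share of smooth muscle markers (1.87%) and the lowest of proximal tubule markers (0.468%), and their part in its Lama5 level was not tested.

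Capillary libraries held 34.1, 49.7, 1.52 and 217.5 CPM of Lama5, and venule libraries 28.8, 26.7, 1.11 and 78.4 CPM. Library 98 was the lowest of both of these groups, with 13 and 6 reads, and library 100 the highest. The 2 groups overlapped each other and whole kidney. Of the promoters printed above, the Lama5 window held 4 GC boxes and the Lamb1 and Lamb2 windows 2 and 0. A link between these matches and the levels was not tested.

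Lama4 encodes the other α chain typical of endothelium, and was sparse here. It had at least 10 counts in 8 of 16 microdissected libraries and in all whole kidney libraries. Glomerular libraries held 23.4, 2.54, 0.234 and 41.2 CPM and whole kidney libraries 6.68, 5.87, 6.58 and 10.5 CPM. The group means were 16.9 ± 19.3 CPM in glomeruli, 5.38 ± 7.42 in venules, 3.34 ± 6.11 in arterioles and 2.23 ± 2.72 in capillaries, and no contrast called it. Of the Lama4 and Lama5 reads together, Lama5 made up 95.95 ± 7.72% in arterioles, 86.6 ± 17.6% in venules, 86.2 ± 15.99% in glomeruli, 78.4 ± 39.2% in capillaries and 74.0 ± 7.26% in whole kidney. The arteriole libraries (84.4 to 100%) lay above the whole kidney libraries (63.2 to 79.0%), the other ranges overlapped, and no test was run on these shares.

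Lama2 encodes the α chain of muscle, mesangial and nerve basement membranes. Its highest level was in venules, at 28.7, 87.5, 45.6 and 20.1 CPM, and every venule library lay above the whole kidney range of 7.49 to 13.2 CPM. Capillary libraries held 31.6, 18.0, 36.6 and 0.391 CPM and glomerular libraries 2.00, 34.6, 11.8 and 7.94 CPM. Arteriole libraries held 0.426, 0.483, 13.9 and 0 CPM. The difference between venules and whole kidney was 2.09 on the log2 scale (SE 1.53, edgeR FDR 0.886), and that between arterioles and venules was -3.61 (SE 1.84, edgeR FDR 0.237, DESeq2 FDR 0.0455). Of the 10 chains only Lama2 had an annotated antisense gene over the end of its transcript, and the strand setting of the counting was not given in the sources used here.

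Lama1 encodes the α chain of tubular basement membranes and of the early embryo. Whole kidney held 4.76, 7.03, 6.17 and 5.20 CPM, and arterioles at most 0.714 CPM. Each of the other 3 compartments had 1 library far above the rest, at 18.2 CPM in glomeruli, 10.95 CPM in capillaries and 61.7 CPM in venules. Its log2 fold change in arterioles against whole kidney was -4.13 (SE 2.27, edgeR FDR 0.197), and it was called when only those 8 libraries were fitted (FDR 0.00596).

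Lama3 encodes the α chain of the laminin under stratified and some tubular epithelia. It stood between 7.37 and 8.12 CPM in whole kidney and at 0.915 ± 1.23 CPM in glomeruli, with 0.601, 0.110, 2.73 and 0.221 CPM in the 4 libraries. All 4 glomerular libraries lay below the whole kidney range. Arterioles held 20.4 ± 16.8 CPM, venules 23.7 ± 18.7 and capillaries 10.3 ± 8.73, each with 1 library under 1 CPM. Glomeruli against the other 3 compartments gave a log2 fold change of -4.20 (SE 1.94, edgeR FDR 0.281), and DESeq2 called this contrast (FDR 0.00652).

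Lamb3 encodes the β chain that pairs with Lama3 in epithelial laminin. It was too sparse to test. The arteriole and venule libraries held 0 reads, which allows up to 0.0913 and 0.0976 CPM of the plain totals over each group (3 counts of the group total). Capillaries held 1 read and glomeruli 42, all 42 in library 100. Whole kidney held 5, 4, 70 and 63 reads. Lamb3 overlaps Hsd11b1 and G0s2 on the opposite strand.

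Lamc1 encodes the γ chain of nearly all vascular and kidney laminins, those with Lama5 and Lamb2 included. It stood at 8.96 ± 4.24 CPM in glomeruli, far below Lamb2, and in capillaries at 11.02 ± 12.98 CPM beside 16.3 ± 15.2 for Lamb2. Arteriole libraries held 5.33, 185.3, 0.112 and 0.357 CPM, so the same library that was high in Lama5 was high in Lamc1. Capillary libraries held 18.9, 0, 25.2 and 0 CPM and venule libraries 0.560, 2.80, 12.04 and 13.3 CPM. Whole kidney held 13.3, 8.87, 12.5 and 11.5 CPM. No contrast called Lamc1.

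Lamc3 encodes a γ chain found in few adult tissues. It was on in some microdissected libraries and near 0 in others of the same group. Arteriole libraries held 70.6, 0.805, 0.112 and 0.178 CPM, and glomerular libraries 1.202, 0, 0.312 and 36.6 CPM. Capillary libraries held 62.0, 51.3, 3.15 and 0 CPM, and venule libraries 7.28, 1.09, 0.185 and 60.5 CPM. Whole kidney held 3.75, 4.38, 5.28 and 4.35 CPM, and no contrast called Lamc3.

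Lama1, Lama2, Lama3, Lama4, Lamc1 and Lamc3 varied more between the libraries of microdissected groups than of whole kidney. Their coefficient of variation within a microdissected group ran from 47.4 to 198% with a median of 120%, and within whole kidney from 4.43 to 28.1% with a median of 17.1%. The corresponding whole kidney values for Lamb2, Lamb1 and Lama5 were 8.20, 12.5 and 15.7%, and these chains also varied widely in some microdissected groups, with 140.4% for Lama5 and 167% for Lamb1 in arterioles and 128% for Lama5 and 93.2% for Lamb2 in capillaries. At these levels a log2 fold change as far from 0 as -5.56 (Lama1, arterioles against venules, SE 2.71, edgeR FDR 0.213) did not pass. Microdissected libraries detected 11339 to 14164 genes and whole kidney libraries 18272 to 20474. The part of the low RNA input in this spread was not tested.

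The genes closest in pattern to each chain with a mean of at least 10 CPM were found by Pearson's r of log2(CPM + 1) over the 20 libraries, which share groups and depth, and are given as a description. Lamb2 was closest to Rcan2 (r 0.93), Inpp5a (r 0.93) and Actn4 (r 0.93), the last an actin crosslinker of podocytes and other cells. Lamb1 was closest to Ezr (r 0.93), Cbs (r 0.91) and Sdc4 (r 0.91), where Ezr links membrane to actin and Sdc4 is a heparan sulfate proteoglycan. Lama5 was closest to Klc1 (r 0.85), Anapc16 (r 0.84) and Fxr2 (r 0.82). Lama2 was closest to Fam214a (r 0.89), Fam50a (r 0.88) and Mtx1 (r 0.86), and Lamc1 to Nudt21 (r 0.88), Pik3c3 (r 0.84) and Acap2 (r 0.82). Lamc3 was closest to Zfp385a (r 0.84), Ahr (r 0.79) and Mrrf (r 0.73), and Lama3 to Niban1 (r 0.76), Ank3 (r 0.74) and Slc6a8 (r 0.74). Over the same libraries Lamb1 and Lamb2 had an r of -0.58, Lama5 and Lamb2 of 0.44, and Lamc1 with Lamb2 of 0.11.

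Of the 18 genes listed as partners of laminin in the basement membrane, 6 were higher and 1 lower in arterioles than in whole kidney, and 6 were higher in glomeruli, where 11.3% and 3.06% of all genes were called. The median log2 fold change of the list was 1.504 in arterioles and 1.87 in glomeruli, beside 0.22 and 0.25 for all genes. In venules 1 was higher and in capillaries 0 passed by edgeR, where 0.224% and 0.0941% of all genes were called. Among the 4 compartments 9 of the 16 partners tested passed, where 11.4% of all genes did. The 4 with the smallest p were Sparc, a collagen-binding matrix glycoprotein (FDR 1.08e-06), Col18a1, the collagen from which endostatin is cut (FDR 6.41e-05), Hspg2, which encodes perlecan (FDR 7.22e-05), and Tinagl1, a matrix protein that binds laminin (FDR 0.00014). Hspg2 stood at 912 ± 401 CPM in arterioles, 220 ± 53.1 in glomeruli, 116 ± 95.4 in capillaries, 71.8 ± 53.6 in venules and 37.4 ± 8.08 in whole kidney. The order of Hspg2 levels was that of Lamb2 except for capillaries. The genes of the counts below 6 are named although their values were seen first. The partner lower in arterioles was Tinag, a matrix protein of tubules, with a log2 fold change of -2.40, and the partner higher in venules was Sparc, with 1.72 (edgeR FDR 0.0086).

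Of the 10 genes listed as laminin receptors, 7 were higher and 1 lower in arterioles than in whole kidney, and 4 were higher in glomeruli, where 11.3% and 3.06% of all genes were called, while 0 passed in capillaries or venules by edgeR. The 4 in glomeruli, also named with their values known, were Itgb1, Dag1, Bcam and Cd151, with log2 fold changes of 2.38, 2.49, 3.08 and 2.10. The median log2 fold change of the list was 2.696 in arterioles and 2.16 in glomeruli. Among the 4 compartments 8 of the 9 tested passed, where 11.4% of all genes did. Cell type markers were also called higher than whole kidney in these groups, and their part in the partner and receptor counts was not tested. In arterioles these were 6 of 6 smooth muscle, 6 of 6 mesangial and pericyte and 5 of 5 erythrocyte markers. There 4 of 6 fibroblast and 5 of 10 endothelial markers were also higher, where 5.78% of all genes were called higher. Of the 8 podocyte markers 2 were higher and 2 lower in arterioles, and 1 endothelial marker was lower. In glomeruli 8 of 8 podocyte, 6 of 6 mesangial and pericyte, 6 of 10 endothelial and 4 of 5 erythrocyte markers were higher. Of all genes 1.59% were called higher in glomeruli. The 4 receptors with the smallest p among the 4 compartments were Itgb1, the β subunit shared by laminin-binding integrins (FDR 0.000124), Bcam, a receptor for the Lama5 chain (FDR 0.000332), Dag1, which encodes dystroglycan (FDR 0.000654), and Itgb4, the β subunit of hemidesmosomes (FDR 0.00479). Bcam stood at 434 ± 285 CPM in arterioles, 209 ± 60.6 in glomeruli, 39.4 ± 28.2 in venules, 27.5 ± 20.9 in capillaries and 24.6 ± 3.82 in whole kidney. Dag1 stood at 684 ± 489 CPM in arterioles, 628 ± 134 in glomeruli, 164 ± 74.7 in venules, 140 ± 48.8 in capillaries and 112 ± 16.01 in whole kidney. The receptor lower in arterioles was Itga6, the α subunit that pairs with Itgb4 or Itgb1, with a log2 fold change of -2.65 (SE 0.76, edgeR FDR 0.0206). Both lists were described by counts, and no test of a list was run.

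**Figure D5:**
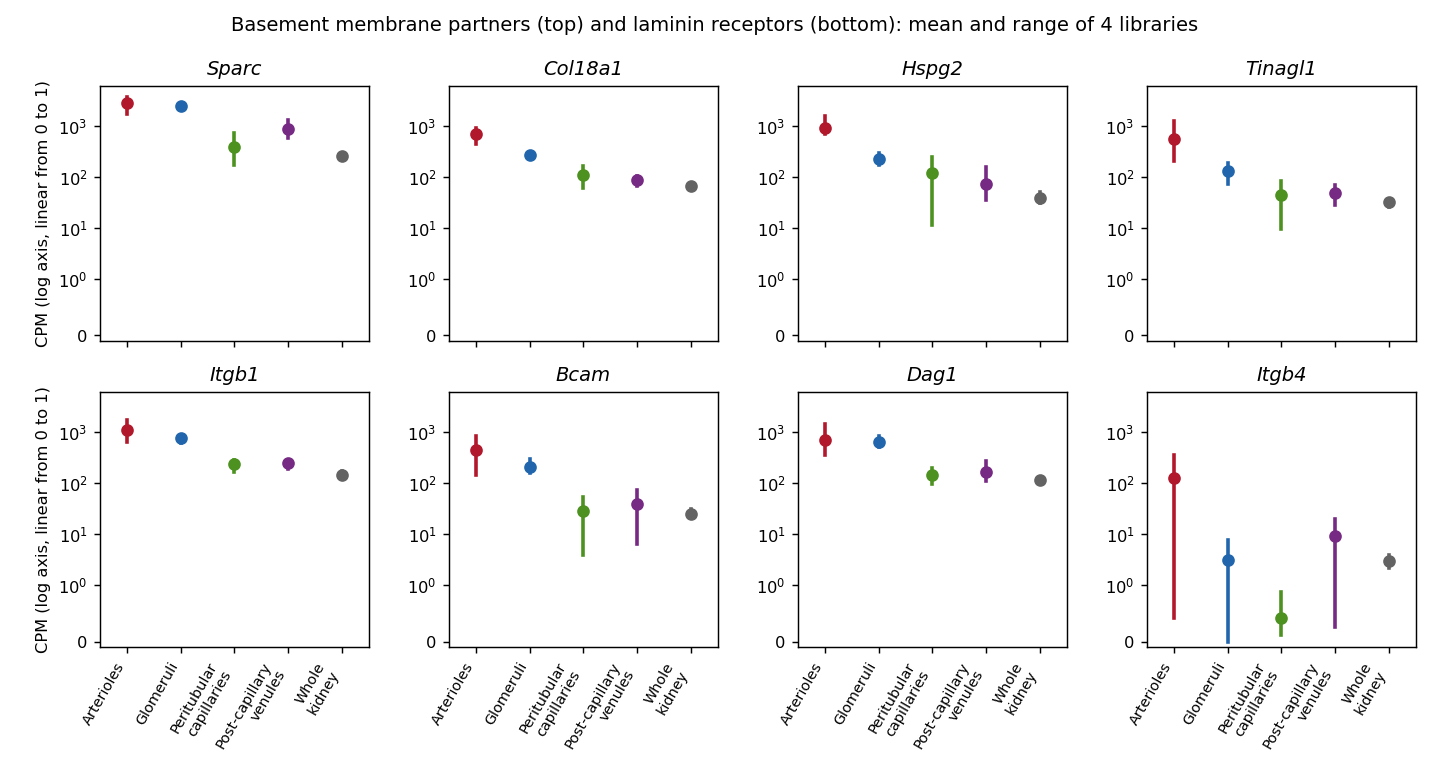
Points give the mean CPM and lines the range over 4 libraries of 4 basement membrane partners (top) and 4 laminin receptors (bottom) in each group, on an axis linear from 0 to 1 and logarithmic above. All 8 means are higher in arterioles than in any other group, and Itgb4 has the widest range within groups.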

How the data were processed

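Laser-microdissected compartments and whole kidney sections of mouse kidney were profiled by QuantSeq 3′ FWD mRNA sequencing (100-bp single-end reads). The authors made the counts with htseq-count 0.13 from reads trimmed by bbduk and placed on GRCm38.p6 by STAR 2.7. The submitters' processing notes also list featureCounts and GRCm39, with no role given. The deposited table holds whole-number read counts per gene, not normalized, with 168 value columns, of which 20 belong to the samples described and 148 were not used. There was no pair of identical libraries among the 20. Library totals of 4639090 to 12283098 counts limit the precision of sparse genes.

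Counts were scaled by TMM and tested with edgeR 4.0.16 (quasi-likelihood F test in its legacy form, filterByExpr by group) in R 4.3.3, after the study's own choice of test, and the scripts were tested on simulated data. The 4 compartments were compared with whole kidney over 20 libraries, and with each other over 16. SE is the log2 fold change divided by the root of F, and 95% intervals are the value ± 1.96 SE. The members and gene lists were chosen with earlier results of these data known. All 10 chains were named, with the 4 genes of smallest p from each list and the 3 genes of closest pattern (chains of mean 10 CPM or more, predicted genes passed over). Alternatives were DESeq2 1.42.0, other scalings and filters, other sets of libraries, a replicate block and each library left out. P-values rest on the spread between libraries of the same group, labelled as biological replicates, pooled over all groups in a fit and moderated across genes. In the fit of 20 libraries, whole kidney and microdissected groups thus shared the same spread estimate per gene.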

Additional observations from a re-analysis of the deposited data

Results flagged for a closer look

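In 14 of 50 combinations of chain and group, 1 of the 4 libraries lay so far from the others that its gap over the range of the group passed Dixon's 95% critical value for 4 samples. For normally distributed values chance flags about 1 in 20. CPM of sparse chains need not follow that distribution, so 14 of 50 is not read as an excess over chance. Of the 50, Lamb3 in arterioles and in venules was 0 in every library and had no range, and a single library above 0 passes whatever its value, as for both Lamb3 values below, so the chance rate does not apply to such groups. All values are CPM. For the abundant chains these were Lama5 in arteriole library 96 (1278, next 236), Lamb1 in arteriole library 100 (116.7, next 12.25) and Lamb2 in capillary library 98 (38.83, next 10.77). For Lama1 they were 18.23 in glomerular library 93, 10.95 in capillary library 100 and 61.69 in venule library 98. The other α chains gave Lama2 at 13.94 in arteriole library 98 and Lama4 at 12.49 in arteriole library 100. Lamc1 stood at 185.3 in arteriole library 96. Lamc3 stood at 70.56 in arteriole library 93, 36.62 in glomerular library 100 and 60.54 in venule library 100. Lamb3 had 4.632 in glomerular library 100 and 0.1956 in capillary library 100, the latter a single read. All 14 were in microdissected groups and none in whole kidney, and each was a high value.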

How the results depend on the processing

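Of the alternative values for the counts of chains called and the mean shares, 165 stayed near the value reported (within 1.5 times for counts, within 1 SD for shares) and 11 did not. Leaving out 1 of 4 libraries cannot move a mean share by as much as 1 SD. The shares among the 165 therefore could not fail and are no measure of stability. For single chains, over the contrasts that were called or changed side at least once, 655 alternative values stayed on the same side of the threshold, called or not, 32 gained a call, 23 lost one and 0 reversed. The number of chains that differed among the 4 compartments was 2, fell to 1 with plain library totals, and ran from 1 to 3 when libraries were left out. Arterioles against whole kidney gave 2 and 1 to 3 with a library left out. Glomeruli against whole kidney gave 1, and 2 under independent filtering or when 8 libraries were fitted. Venules gave 0, and 1 under both of those settings. Over the 6 pairs the count of 6 became 11 with DESeq2 and 4 to 9 with a library left out, and against the other 3 compartments the count of 4 became 3 to 6. DESeq2 also called Lama3 in glomeruli against venules (FDR 0.0267) and Lama5 in arterioles against capillaries (FDR 0.0395). The cause was not tested. Lama5 rests on arteriole library 96 and Lamb1 on arteriole library 100, as given above.

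A replicate block on the library number gave 2, 2, 1, 0, 0, 7 and 4 calls (among compartments, arterioles, glomeruli, capillaries and venules against whole kidney, pairs, and against the other 3). Libraries of the same number had a mean r of 0.00793 (range -0.0526 to 0.0714) between their deviations from the group means. Such an r cannot tell whether they share a mouse, since the spread between microdissected libraries was wide. The number was not used as a pairing in the main tests. With the block, Lama5 in arterioles against capillaries was called (FDR 0.0391). Plain library totals moved the median log2 fold change of all genes by -0.55 in arterioles, 0.11 in glomeruli, -0.44 in capillaries and -0.25 in venules, and RLE size factors moved it by 0.17 in arterioles. Low counts of the sparse chains, with SEs of 1.24 to 2.71, limit what 4 libraries can show.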
